A study of Homo sapiens with 38 samples.

Results

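The RNAs described here are the short structural RNAs of the nucleus and cytoplasm that the expression table lists under their own symbols: the spliceosomal small nuclear RNAs (snRNAs, symbols RNU), the Y RNAs (RNY), the vault RNAs (VTRNA), the snaR family (SNAR), the small Cajal body RNAs (scaRNAs, SCARNA), and 4 RNAs with a single gene each, RN7SK, RMRP, RPPH1 and TERC. The rule that selects them uses the symbol alone and no measured value, and 96 of the 25504 symbols listed once in the table met the rule. The 96 entries comprised 28 snaR, 24 scaRNA, 9 U1, 5 U5, 5 U6, 5 Y, 4 minor spliceosome, 4 vault and 2 U4 entries, 1 entry each for U2 and U7, the 4 single RNAs, and 4 other RNU symbols. By RefSeq all of the last 4, RNU105A, RNU105B, RNU105C and RNU86, are small nucleolar RNAs. RNU6-15, RNU6-21 and RNU6-42 among the U6 entries and RNY4P8 among the Y entries are pseudogenes by RefSeq. A RefSeq length was found for 92 entries and ran from 55 to 451 nt, with a median of 122 nt.

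RKO is a human colorectal cancer cell line. The cells received vehicle (DMSO), the LSD1 inhibitor NCD38, or NCD38 joined to one of 2 pyrrole-imidazole polyamides, which are synthetic ligands of the DNA minor groove. These conjugates are labelled P4_NCD38 and PIPP_NCD38 and are called NCD38-β2P4 and NCD38-β2PIPP below. All compounds were given at 2 μM in 0.1% DMSO, for 30 days or for 4 days, so the 8 RNA libraries are 4 treatments at 2 times with 1 library per condition. The NCD38-β2PIPP library of day 30 carries the compound as "PPIP" in its treatment label and as "PIPP" in its title. A condition has no replicate, and no p-value is given between single conditions. Values for a day are given in the order DMSO, NCD38, NCD38-β2P4, NCD38-β2PIPP. Expression of KRT18 (76.2 to 121 FPKM) and CDX2 (7.48 to 11.6 FPKM) was present in every library, EPCAM had 3.94 to 6.53 FPKM on day 30 and 0.0922 to 0.867 FPKM on day 4, CDH1 was at most 0.0642 FPKM and KRT20 and VIL1 were at 0 in all 8. Of the epithelial list, EPCAM alone moved with the day past the threshold used below, and its part in the results was not tested. The leukocyte, endothelial and red cell markers PTPRC, PECAM1 and HBB were at 0 throughout.

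Spliceosomal snRNAs form the core of the particles that remove introns: U1 pairs with the 5′ splice site, U2 with the branch point, and U4, U5 and U6 join as a preformed unit, while U11, U12, U4atac and U6atac serve the rare minor class of introns. RN7SK holds the elongation kinase P-TEFb in an inactive particle, RPPH1 and RMRP are the RNAs of the tRNA- and rRNA-processing enzymes RNase P and RNase MRP, and TERC is the template of telomerase. The scaRNAs guide the chemical modification of snRNAs in Cajal bodies, Y RNAs bind the proteins Ro60 and La, and vault RNAs belong to a large cytoplasmic particle. Most of these RNAs end without a poly(A) tail, while the libraries were made with a kit that selects poly(A) RNA after purification on a silica column. What was counted is therefore the fraction of each RNA that passed both steps, and fewer copies of an RNA cannot be told apart here from a smaller carried-over fraction.

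The sequences below come from the GRCh37 genome at the GENCODE positions and are written as DNA. U1 is shown because several of its copies are identical. RNU1-1 lies at chr1:16840617-16840780 on the minus strand, and its capitals mark the bases that pair with the 5′ splice site and the site bound by the Sm proteins.
RNU1-1: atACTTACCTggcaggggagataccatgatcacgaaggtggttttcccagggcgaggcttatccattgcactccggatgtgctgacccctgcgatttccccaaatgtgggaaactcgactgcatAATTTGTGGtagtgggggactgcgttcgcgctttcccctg
The copies RNU1-2, RNU1-3 and RNU1-4 matched this sequence at every base, and RNU1-9 differed at 1 base. The U4 genes RNU4-1 (chr12:120730900-120731040, minus strand) and RNU4-2 (chr12:120729566-120729706, minus strand) are neighbours and are shown because 4 of 141 bases, in capitals, are all that assigns a read to one or the other.
RNU4-1: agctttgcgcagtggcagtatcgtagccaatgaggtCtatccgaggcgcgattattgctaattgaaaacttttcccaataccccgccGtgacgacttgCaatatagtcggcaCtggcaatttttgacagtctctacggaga
RNU4-2: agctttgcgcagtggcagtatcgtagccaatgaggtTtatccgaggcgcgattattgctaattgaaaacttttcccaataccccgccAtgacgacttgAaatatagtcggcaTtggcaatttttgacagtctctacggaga

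The next 4 scaRNAs are shown because each had fragments in every library of day 30 and few or none on day 4. For SCARNA20 and SCARNA8 the day 30 totals were only 9 and 12 fragments. Capitals mark the last ACA, the tail motif of the H/ACA class, and any TGAG, the core of the box that keeps such RNAs in Cajal bodies. SCARNA14 lies in an intron of TIPIN (chr15:66639545-66639680, minus strand), SCARNA20 in an intron of USP32 (chr17:58308877-58309007, minus strand), SCARNA8 in an intron of HAUS6 (chr9:19063654-19063784, minus strand), and SCARNA22 in NSD2 (chr4:1976363-1976487, plus strand), where it overlaps an exon of some transcripts.
SCARNA14: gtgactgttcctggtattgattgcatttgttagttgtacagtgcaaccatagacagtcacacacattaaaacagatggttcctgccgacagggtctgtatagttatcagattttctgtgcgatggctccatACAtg
SCARNA20: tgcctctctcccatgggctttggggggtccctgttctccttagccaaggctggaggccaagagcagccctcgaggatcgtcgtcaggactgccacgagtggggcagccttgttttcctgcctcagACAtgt
SCARNA22: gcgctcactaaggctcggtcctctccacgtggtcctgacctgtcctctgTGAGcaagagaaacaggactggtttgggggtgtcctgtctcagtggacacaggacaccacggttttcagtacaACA
SCARNA8: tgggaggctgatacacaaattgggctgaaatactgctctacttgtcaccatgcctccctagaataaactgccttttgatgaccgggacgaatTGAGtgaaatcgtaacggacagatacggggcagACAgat
On the RNA strand, TGAG was found in 12 of the 18 scaRNAs with a sequence and in 13 of the 35 other entries with one. An ACA within the last 8 bases was found in 13 of the 18 and in 4 of the 35.

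RNY1 and RNY4 are shown because RNY4 was listed above 0 with every inhibitor and in neither DMSO library. RNY1 (chr7:148684228-148684340, minus strand) and RNY4 (chr7:148660407-148660502, plus strand) come from 1 cluster, and the capitals mark the 11 first bases that both share and the closing run of T, which in the RNA is the site of La.
RNY1: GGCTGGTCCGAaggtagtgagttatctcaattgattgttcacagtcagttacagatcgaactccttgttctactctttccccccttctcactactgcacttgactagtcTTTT
RNY4: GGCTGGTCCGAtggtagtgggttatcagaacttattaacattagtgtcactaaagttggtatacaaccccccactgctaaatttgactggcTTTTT

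Of the 96 entries, 72 (75.0%) had an FPKM above 0 in at least 1 library, against 70.5% of all 25504 symbols. Above 0 in all 8 libraries were 13109 symbols of the whole table and 22 of the 96, namely the 9 U1 entries, RNU2-2, both U4 genes, RNU6-1, RNU105A, RNY1, RNY3, SCARNA2, SCARNA9, SCARNA12, RN7SK, RMRP and RPPH1. On day 30 the libraries listed 51, 60, 56 and 67 entries above 0, and on day 4 they listed 44, 47, 43 and 36. Every day 30 library thus listed more of these RNAs than any day 4 library, and the same held for the whole table, with 15363 to 15842 symbols above 0 against 14288 to 15180. The U1, U2 and U4 entries were above 0 in every library, while RNU7-1, which pairs with histone pre-mRNA, was at 0 in all 8.

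Of the 24 scaRNAs, 15, 17, 13 and 18 were above 0 in the libraries of day 30 and 10, 8, 6 and 9 in those of day 4. Among all 96 entries 13 were above 0 on day 30 only, 7 of them scaRNAs, and 2 on day 4 only, SCARNA1 and RNU86, where the whole table had 1529 symbols above 0 on day 30 only and 777 on day 4 only. The 4 RNAs of the minor spliceosome were above 0 in numbers of 2, 4, 4 and 4 in the libraries of day 30 and 2, 1, 1 and 0 in those of day 4. By contrast, U5 and vault RNAs were sparse at both times: RNU5D-1 and RNU5E-1 were the only U5 entries above 0 in any library, VTRNA1-3 and VTRNA2-1 the only vault entries, and VTRNA1-1, VTRNA1-2 and RNY5 were at 0 in all 8. A zero here says that no fragment was assigned, not that the RNA was absent from the cells.

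Longer RNAs were listed above 0 more often, though not at every step of length. Among entries of 40 to 99 nt, 2 of 8 were above 0 on day 30 and 2 on day 4, compared with 11 of 12 and 10 of 12 among those from 140 to under 200 nt. These 12 include U1 copies that share reads and both U4 genes, so they are not 12 separate observations. Of the other short RNAs of the table, 4.9% and 8.7% of 1436 were above 0 on day 30 and day 4 at 40 to 99 nt. From 100 to under 120 nt 12% and 8.3% of 133 were, and from 120 to under 140 nt 56.1% and 50.9% of 114. From 140 to under 200 nt the shares were 55.2% and 44.8% of 29.

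FPKM, the number of fragments per kilobase of RNA scaled to the fragments mapped in the library, is divided by the number of places a fragment can start, and with an assumed fragment length of 200 ± 80 nt (mean and SD) a short RNA has very few such places. The value of 1 fragment was therefore worked out for each library from the steps in the low FPKM values of short RNAs with 1 exon, of which 92.5% to 98.1% came out within 0.1 of a whole number of fragments. The estimate was chosen to bring these same values near whole numbers, so this share is no separate check of it. By this estimate the libraries held 20128958, 18522005, 13765418 and 25303924 fragments on day 30 and 19463861, 14663471, 14178964 and 15707832 on day 4. Fragments divided by these totals are called depth-scaled fragments below. In the DMSO library of day 30, 1 fragment was worth 0.391 FPKM for an RNA of 330 nt, 7.83 FPKM at 130 nt and 245 FPKM at 55 nt. The shortest fragment that fitted the steps was 32 nt on day 30 and 49 nt on day 4, so at 55 nt 1 fragment was worth 2084 FPKM in the DMSO library of day 4. These lengths are estimates from the values, the labels give neither a read length nor a sequencing run by day, and day cannot be told apart from them.

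On this scale many detections rested on very few fragments. Outside the multi-copy families, 99 of the 210 values above 0 corresponded to 3 fragments or fewer and 50 of them to 1. Of the values of 10 fragments or fewer, 108 (77.7%) were within 0.1 of a whole number. Where reads are divided among copies the estimate can fall between whole numbers, as for RNU6-1. Estimated fragments are counting estimates, and their intervals cover counting error only. A listed 0 allows up to 3 fragments.

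The first comparison asked how the RNAs differed between cells at day 30 and at day 4, with treatment as a term. Of the 67 entries with a mean of at least 1 FPKM, 28 were higher on day 30 and 1, RNY4, was lower at an adjusted p below 0.05 (limma). Over all 10865 genes tested the corresponding shares were 30.2% higher and 31.7% lower, against 41.8% and 1.49% of these entries. Of the 28, 8 had no fragment on day 4 and reached the mean of 1 FPKM only through day 30. TERC, SCARNA9, SCARNA10, SCARNA13 and the called SNAR-B and SNAR-C entries had day 4 means from 0.34 to 0.86 FPKM. They too reached the mean only through day 30. The shares above are therefore a description from which nothing is read about the entries. The median difference of the 67 was 1.03 on the log2(FPKM + 1) scale, compared with -0.02 over all genes. The groups of 4 libraries did not overlap for 19 entries, all with day 30 above, where 29.5% of all genes had day 30 above and 33.1% below. For a single entry the 2-sided exact permutation test of 4 against 4 libraries, which ignores treatment, cannot give less than 0.0286. The limma fit takes the variation of the day difference between treatments as its error, since no condition has a replicate.

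**Figure D1:**
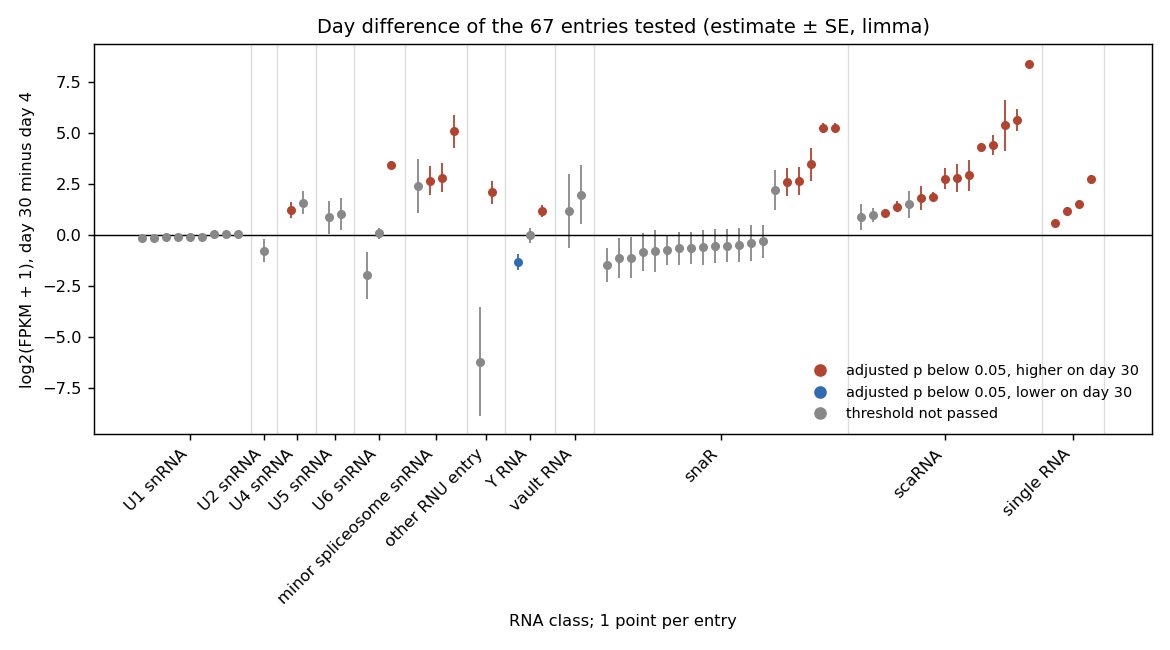
Difference between day 30 and day 4 on the log2(FPKM + 1) scale (y axis) for each of the 67 entries tested, grouped by class (x axis), with the limma standard error. Red and blue points passed an adjusted p of 0.05; the scaRNAs and single RNAs lie above 0, and the U1 entries lie at 0.

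Some of these calls rested on very few fragments. Of the 28 entries called higher, 23 had a fragment estimate of their own, and for 20 of them the counting interval of the ratio of depth-scaled fragments between the days lay above 1. The other 3, RNU6-15, SCARNA18 and RNU4ATAC, rested on 2, 5 and 5 fragments in all 8 libraries. RNU6-15, a U6 pseudogene by RefSeq, had 9.31, 10.1, 13.6 and 6.77 FPKM on day 30, each about 0.6 of a fragment or less. It was at 0 in all 4 libraries of day 4, with an adjusted p of 0.0004 (limma). Only 9 of the 23 had 100 or more fragments in total.

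The 4 single RNAs were all higher on day 30, where 30.2% of all genes were. RN7SK had 167, 172, 157 and 182 FPKM on day 30 and 78.5, 71.3, 37.03 and 53.9 FPKM on day 4, from 277.7 to 592.1 fragments and from 65.8 to 191.6 fragments per library. No day 4 library reached the lowest day 30 library, and the difference was 1.53 ± 0.19 (log2 ± SE, limma adjusted p = 0.0015). RPPH1 behaved similarly, with 56.5, 56.6, 48.7 and 50.7 FPKM against 26.5, 32.9, 17.9 and 17.1 FPKM and a difference of 1.18 ± 0.16 (limma adjusted p = 0.0020).

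RMRP, the partner RNA of the related enzyme, differed least. It had 109, 134, 91.6 and 98.6 FPKM on day 30 and 89.9, 109, 43.0 and 62.5 FPKM on day 4, so the days overlapped, and its difference of 0.57 ± 0.17 (limma adjusted p = 0.028) lost the threshold after rescaling and on leaving out the DMSO, NCD38-β2P4 or NCD38-β2PIPP library of either day (adjusted p from 0.053 to 0.096). TERC showed the widest gap of the 4, at 7.53, 11.3, 5.06 and 8.42 FPKM against 1.07, 0.57, 0 and 0 FPKM. These values stand for 37, 51, 17 and 52 fragments on day 30 and 5, 2, 0 and 0 on day 4, and the difference was 2.71 ± 0.24 (limma adjusted p = 0.00066). The ratio of its depth-scaled fragments between the days was 18.5 (95% counting interval 8.76 to 46.7), whereas that of RMRP was 1.46 (1.28 to 1.66).

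Of the 15 scaRNAs tested, 12 were higher on day 30 and none was lower, where 30.2% of all genes were higher and 31.7% lower. For 10 the days did not overlap, with day 30 above, as for 29.5% of all genes, where 33.1% had day 30 below. Several of the 12, among them SCARNA14, SCARNA20 and SCARNA8, reached the mean of 1 FPKM only through day 30. Nothing is therefore read from these counts about the class. SCARNA14, whose sequence is given above, had 285, 380.0, 313 and 325 FPKM on day 30, from 44, 54, 33 and 63 fragments, and 0 in all 4 libraries of day 4. Its difference was 8.34 ± 0.13 (limma adjusted p = 7.5e-06), and its depth-scaled fragments were at least 53.3-fold higher on day 30, counting 3 fragments over the 4 libraries of day 4 and taking the count of day 30 as exact. The lower end of the 95% counting interval of the ratio was 42.9. SCARNA16 had 220.2, 314, 211 and 232 FPKM against 4.82, 9.53, 0 and 8.96 FPKM, which is 438 fragments against 8. SCARNA22 had 226, 225, 79.2 and 352 FPKM against 0, 14.99, 31.2 and 0 FPKM, with 103 fragments against 3. These 3 were among the best covered scaRNAs and each was separated between the days in every treatment, though SCARNA22 lost the threshold without the DMSO library of either day (limma adjusted p = 0.062 and 0.063).

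Other scaRNAs reached the threshold from much lower counts. SCARNA20 had 15.7, 25.5, 22.9 and 12.5 FPKM on day 30, from 2, 3, 2 and 2 fragments, and SCARNA8 had 15.2, 49.6, 33.4 and 6.06 FPKM, from 2, 6, 3 and 1 fragments. Neither had a fragment on day 4, so their depth-scaled fragments were at least 2.47-fold and 3.29-fold higher on day 30 by the same reckoning, and the lower ends of the counting intervals were 1.63 and 2.29. SCARNA9 had 16, 16, 9 and 11 fragments against 1, 1, 1 and 2, and a difference of 1.84 ± 0.24 (limma adjusted p = 0.0018). SCARNA12 overlaps an exon of its host gene PHB2, and whether its fragments came from PHB2 transcripts was not tested. SCARNA12 was the best covered scaRNA on day 4, with 16.7, 45.6, 22.4 and 33.9 FPKM against 11.4, 1.88, 10.8 and 9.74 FPKM. In fragments it had 25, 63, 23 and 64 on day 30 and 16, 2, 11 and 11 on day 4. Its difference was 1.80 ± 0.58 (limma adjusted p = 0.040). It was 1.07 without the NCD38 library of either day, and without any library of the other 3 treatments it lost the threshold (limma adjusted p from 0.0505 to 0.094). The 3 that were tested without passing the threshold were SCARNA3, SCARNA7 and SCARNA11. SCARNA17 and SCARNA6 went the other way in fragments, with 14 against 16 and 2 against 4, but their means were under the minimum for the test, and the counting intervals of both ratios included 1.

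Host genes differed between the days in either direction. Most scaRNAs are cut from introns of other genes, and all 18 placed on the genome lay within a gene on the same strand. SCARNA12, SCARNA13, SCARNA17 and SCARNA22 overlapped an exon of their host gene, and whether their fragments came from its transcripts was not tested. For the 10 members with a host where both were tested, all with a day difference above 0, the host was higher on day 30 for 3, lower for 4 and short of the threshold for 3, where 30.2% of all genes were higher and 31.7% lower, and the host's difference had the sign of the member's for 5. PHB2 itself had 237 to 282 FPKM on day 30 and 479 to 706 FPKM on day 4, a difference of -1.12 ± 0.16 (limma adjusted p = 0.0021), opposite to SCARNA12. CHD3 was also lower on day 30 (-0.75 ± 0.20, limma adjusted p = 0.020), while its SCARNA21 had fragments only on day 30. TIPIN rose with SCARNA14, but by 0.80 ± 0.21 (limma adjusted p = 0.021), from 2.73 to 6.95 FPKM on day 4 to 7.60 to 11.5 FPKM on day 30. RCC1, the host of RNU105A, was lower on day 30 by -0.46 ± 0.11 (limma adjusted p = 0.017).

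RNU105A, a small nucleolar RNA by its RefSeq name, had 136, 254, 125 and 145 FPKM on day 30 and 40.6, 11.9, 55.5 and 66.97 FPKM on day 4. With 404 and 83 fragments it was among the best covered of the 96 entries, and its difference was 2.07 ± 0.57 (limma adjusted p = 0.023). It was 1.33 without the NCD38 library of either day and missed the threshold without the DMSO library of either day (limma adjusted p = 0.071 and 0.072). RNU86 shows the opposite extreme. It is 55 nt long, and it was listed at 11413 FPKM with NCD38-β2P4 and 2579.9 FPKM with NCD38-β2PIPP on day 4 and at 0 elsewhere, which correspond to 4 and 1 fragments. Its highest value exceeded that of every other entry by far, yet its day difference of -6.20 ± 2.67 did not pass the threshold (limma adjusted p = 0.092).

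U1 was the class that stayed level. RNU1-1 had 127, 128, 109 and 117 FPKM on day 30 and 134, 187, 119.6 and 92.6 FPKM on day 4, from 19.1 to 43.1 fragments per copy after division over the copies. On day 30 the other copies had nearly the same values, from 106 to 128 FPKM over the 9 entries. With NCD38 on day 4, RNU1-2, RNU1-4 and RNU1-7 had 161 FPKM and the other 6 had 186 to 187 FPKM. The differences of the 9 entries ran from -0.13 to 0.04, with standard errors of 0.14 to 0.17, and none passed the threshold. Identical copies share their reads, so the 9 entries are not 9 separate measurements.

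The U4 genes were separated less cleanly. RNU4-2 had 169.5, 38.1, 94.0 and 125 FPKM on day 30 and 21.0, 55.4, 28.8 and 26.03 FPKM on day 4, so that the NCD38 library of day 4 lay above that of day 30. RNU4-1 had 43.4, 47.1, 55.4 and 81.9 FPKM against 12.9, 51.0, 26.5 and 16.0 FPKM. The day difference was 1.58 ± 0.56 for RNU4-2 (limma adjusted p = 0.054) and 1.22 ± 0.39 for RNU4-1 (limma adjusted p = 0.039). Leaving out the NCD38 library of either day brought RNU4-2 to 2.28 (limma adjusted p = 0.0022 and 0.0026). RNU4-1 missed the threshold after rescaling and without the DMSO, NCD38-β2P4 or NCD38-β2PIPP library of either day. RNU2-2, the U2 entry, had 31.6, 68.5, 36.9 and 10.0 FPKM against 83.9, 30.2, 52.2 and 56.7 FPKM and did not pass the threshold (-0.77 ± 0.56, limma adjusted p = 0.28). Without the NCD38 library of either day its difference was -1.42 (limma adjusted p = 0.026 and 0.028), and without the NCD38-β2PIPP library of either day it was -0.24 (limma adjusted p = 0.71).

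The minor spliceosome RNAs were scarcer still. RNU11, which recognises the 5′ splice site of minor introns, had 34.2, 66.8, 39.96 and 119.6 FPKM on day 30, from 5, 9, 4 and 22 fragments, and 8.33, 0, 0 and 0 FPKM on day 4, from 1 fragment. Its difference was 5.07 ± 0.82 (limma adjusted p = 0.0037), and the ratio of its depth-scaled fragments was 32.9 (95% counting interval 5.58 to 1333). RNU6ATAC had 99.3, 49.02, 39.6 and 179.5 FPKM against 45.5, 14.99, 62.3 and 0 FPKM, which overlapped (2.40 ± 1.31, limma adjusted p = 0.16). Without the NCD38-β2PIPP library of either day the difference was 0.70 (limma adjusted p = 0.26). RNU4ATAC had 0, 8.50, 11.4 and 18.7 FPKM and RNU12 had 0, 20.8, 7.01 and 7.63 FPKM on day 30, and both were at 0 throughout day 4. They passed the test on 5 and 7 fragments. Both, like SNAR-C3 and SNAR-C4, lost the threshold when any inhibitor library was left out. U6 itself gave values too low to rank: RNU6-1 had 7.55 to 23.02 FPKM over the 8 libraries, from 0.3 to 1.4 of a fragment. RNU6-42, a U6 pseudogene by RefSeq, had 0, 34.6, 23.3 and 0 FPKM on day 30 and 51.3, 21.7, 16.1 and 9.08 FPKM on day 4. RNU5E-1 had 11.7 and 15.8 FPKM with NCD38 and NCD38-β2P4 on day 30 and 18.4 FPKM with NCD38 on day 4, and RNU5D-1 had 16.3 FPKM with NCD38-β2PIPP on day 30, each about 1 fragment.

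Among the snaR RNAs, which are noncoding RNAs transcribed by RNA polymerase III in several copies, only B, C and E entries passed the threshold. SNAR-B1 had 36.7, 51.2, 45.9 and 97.5 FPKM on day 30 and 0, 0, 0 and 3.34 FPKM on day 4, and SNAR-B2 had the same values in 7 of the 8 libraries. SNAR-E had 21.0, 22.7, 45.9 and 35.0 FPKM against 13.5, 0, 0 and 3.34 FPKM and lost the threshold without the NCD38-β2P4 library of either day (limma adjusted p = 0.051). SNAR-C3 had 0, 5.86, 15.8 and 53.3 FPKM against 0, 0, 0 and 3.45 FPKM, and SNAR-C4 was above 0 in the same 4 libraries. These made up the 5 of 20 tested snaR entries that passed the threshold, all higher on day 30, where 30.2% of all genes were. The 14 SNAR-A copies had differences from -1.47 to -0.32, none past the threshold, and most of their values amount to a fraction of a fragment per copy: SNAR-A9 had 1.02, 1.23, 1.65 and 3.23 FPKM on day 30, or 0.1 to 0.4 of a fragment, and 24.96 FPKM, or 1.4 fragments, with NCD38 on day 4. All snaR entries together came to 10, 14, 12 and 49 fragments on day 30 and 2, 14.9, 3 and 1 on day 4. The 2 vault entries were as thin, VTRNA1-3 with 238 FPKM from 9 fragments in the NCD38-β2PIPP library of day 30 alone and VTRNA2-1 with 29.98 and 32.6 FPKM with the conjugates on day 30 and 39.2 FPKM with NCD38 on day 4.

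The 3 Y RNAs tested had unlike day differences in FPKM, and a divergence between them was not tested. The 95% counting intervals of their ratios of depth-scaled fragments between the days overlapped. These ratios were 2.47 (1.13 to 5.97) for RNY1, 1.65 (0.79 to 3.62) for RNY3 and 0.41 (0.07 to 1.93) for RNY4. RNY3 had 24 fragments against 12, and in DMSO 1 of its fragments was worth 19.05 FPKM on day 30 and 27.2 FPKM on day 4. RNY3 had 114, 207, 27.8 and 106 FPKM on day 30 and 68.0, 185, 77.6 and 75.8 FPKM on day 4, with a difference of -0.02 ± 0.37 (limma adjusted p = 0.97). RNY1 had 78.3, 170.1, 76.3 and 51.9 FPKM against 43.4, 114, 35.7 and 10.7 FPKM and was higher on day 30 by 1.16 ± 0.28 (limma adjusted p = 0.014), a call lost without the NCD38-β2P4 library of either day (limma adjusted p = 0.054 and 0.055). RNY4 had 0, 25.9, 34.9 and 19.0 FPKM on day 30 and 0, 94.8, 172 and 44.5 FPKM on day 4. Its difference of -1.32 ± 0.38 (limma adjusted p = 0.028) made it the single entry lower on day 30, from about 3 fragments against about 6, and it lost the threshold without any of the 6 inhibitor libraries (limma adjusted p from 0.066 to 0.106).

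The second comparison set each inhibitor against DMSO. Over both days, no entry of the 67 passed an adjusted p of 0.05 for NCD38, NCD38-β2P4 or NCD38-β2PIPP (limma), where at an unadjusted p under 0.05 there were 4, 2 and 6, and 1.33%, 0.295% and 0.571% of all genes. Over all genes 4, 2 and 2 passed, which is 0.0092% higher and 0.0276% lower for NCD38, 0.0092% in each direction for NCD38-β2P4, and 0.0184% lower for NCD38-β2PIPP. Among the 67 the smallest adjusted p belonged to RNY4 for all 3 compounds, with differences of 5.67, 6.30 and 4.92 ± 0.54 and adjusted p of 0.16, 0.12 and 0.57 (limma). RNY4 was at 0 in both DMSO libraries and above 0 in all 6 inhibitor libraries. Behind these values stood 1, 1 and 1 fragments on day 30 and 2, 3.5 and 1 on day 4, and a DMSO library without a fragment allows up to 3. The fitted differences depend on the added 1 and are no bounds. With a pseudocount of 0.1, and again without the DMSO library of day 30, RNY4 passed the threshold for NCD38 and NCD38-β2P4 (limma adjusted p from 0.013 to 0.028), and in the latter case for NCD38-β2PIPP as well (limma adjusted p = 0.042).

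Comparing the 3 related compounds directly at the matched dose, no entry passed the threshold in any of the 3 pairs (limma, adjusted over all genes within each pair; smallest adjusted p 0.71 for NCD38-β2P4 against NCD38, 0.53 for NCD38-β2PIPP against NCD38 and 1 between the conjugates). At an unadjusted p under 0.05 there were 5, 12 and 4 entries, out of 67, and 3.24%, 6.37% and 0.313% of all genes, of which 1, 2 and 3 genes passed the adjusted threshold. Of the 12, 5 were U1 copies. The intervals were wide. For RN7SK the 95% interval of the difference ran from -1.19 to 0.13 for NCD38-β2P4 against NCD38 and from -0.82 to 0.50 for NCD38-β2PIPP against NCD38. For RNY1 the difference between NCD38-β2PIPP and NCD38 was -2.49 (-3.47 to -1.52, limma adjusted p = 0.53). Adding a polyamide to NCD38 thus gave no difference past the threshold for these RNAs, and the intervals leave room for differences in either direction for RN7SK.

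By fold alone, many entries were at least 2-fold from the DMSO library of the same day, a far larger share than in the table as a whole. Some passed the minimum only through a library in which they count as higher. RNU5D-1, SCARNA11 and VTRNA1-3 were above 0 only with NCD38-β2PIPP on day 30, and RNU86 only with the conjugates on day 4. The excess over the table is therefore a description from which nothing is read about the entries. With NCD38, 15 of the 67 were higher and 3 lower on day 30, where 1.0% and 0.653% of all genes were (1.66% either way), and 22 were higher and 10 lower on day 4, against 0.874% and 4.54% (5.41% either way). Of these 22, 14 were SNAR-A copies, and all snaR entries together held 14.9 fragments in that library. With NCD38-β2P4 the numbers were 12 higher and 6 lower on day 30 (0.506% and 0.497% of all genes, 1.0% either way) and 9 higher and 8 lower on day 4 (1.1% and 0.81%, 1.91% either way). With NCD38-β2PIPP, 24 were higher and 2 lower on day 30 (0.81% and 0.359%, 1.17% either way), and on day 4 6 were higher and 17 lower (10.3% and 0.838%, 11.2% either way). Many of these folds were folds of very few fragments. Among the changed entries with a fragment estimate of their own, some had no more than 3 fragments in either library. In the order NCD38, NCD38-β2P4, NCD38-β2PIPP these were 6 of 14, 10 of 14 and 8 of 11 on day 30. On day 4 they were 9 of 17, 6 of 10 and 6 of 8.

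The counting intervals leave fewer differences. Among the 27 to 39 entries per comparison with an estimate of their own, the 95% interval of the ratio to DMSO lay above or below 1 for 7, 1 and 4 entries on day 30 in the order NCD38, NCD38-β2P4, NCD38-β2PIPP, and for 3, 2 and 4 entries on day 4. These intervals cover counting error in 1 library against 1 and are not tests of the treatment. No allowance was made for the number of intervals. The matching share over all genes was not worked out, so nothing is read from these counts about the entries. RN7SK stayed between 0.94 and 1.09 of DMSO on day 30 with all 3 compounds. On day 4 it was at 0.47 (0.35 to 0.63) with NCD38-β2P4 and 0.68 (0.53 to 0.87) with NCD38-β2PIPP, and RMRP was at 0.48 (0.33 to 0.68) and 0.69 (0.51 to 0.93). With NCD38 alone on day 4 the ratio was 0.91 (0.72 to 1.14) for RN7SK and 1.21 (0.93 to 1.57) for RMRP.

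Relative to DMSO, SCARNA12 was at 2.74 (1.70 to 4.54) with NCD38 and 2.04 (1.26 to 3.38) with NCD38-β2PIPP on day 30, and at 0.17 (0.02 to 0.71) with NCD38 on day 4. It was at 1.35 (0.73 to 2.47) with NCD38-β2P4 on day 30 and at 0.94 (0.40 to 2.17) and 0.85 (0.36 to 1.95) with the conjugates on day 4, intervals that all include 1. With NCD38, RNU2-2 and RNU105A were at 2.11 (1.12 to 4.12) and 1.87 (1.42 to 2.47) on day 30 and 0.35 (0.16 to 0.71) and 0.29 (0.09 to 0.78) on day 4. For all 3 RNAs the contrast between the days rests on single NCD38 and DMSO libraries and was not tested. Entries at least 2-fold from DMSO in 1 direction on both days with the same compound were RNY4 with all 3, RNU5E-1, SNAR-A5, RNY1 and, downwards, RNU6ATAC with NCD38, and SNAR-B1, SNAR-B2, SNAR-C3 and SNAR-C4 with NCD38-β2PIPP. RNY1 was the best covered of the entries that rose, with 12 fragments against 6 on day 30 and about 5 against 2.5 on day 4, and the counting intervals of both ratios included 1. For NCD38 its difference over both days was 1.24 ± 0.39 (limma adjusted p = 1).

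The proteins that carry these RNAs changed in both directions between the days, as did the whole table, with 30.2% of all genes higher on day 30 and 31.7% lower. The counts of every list below stand beside these shares, and no list was tested against them. Of the 18 Sm and U snRNP proteins, 10 were higher on day 30 and 6 lower, with a median difference of 0.98 against -0.02 over all genes. SNRPB2, the U2 B″ protein, and the Sm protein SNRPG had the highest differences, 2.72 ± 0.29 and 2.01 ± 0.20 (limma adjusted p = 0.0010 and 0.00093), while the Sm protein SNRPB and the U1 protein SNRNP70 had the lowest, -0.72 ± 0.11 and -0.57 ± 0.09 (limma adjusted p = 0.0035 and 0.0040). Of 11 Cajal body and SMN complex genes 5 were higher and 2 lower, with SMN1 and SMN2, near-identical copies that share reads, at 2.10 ± 0.25 and 2.06 ± 0.25 (limma adjusted p = 0.0014 and 0.0015) and GEMIN4 and GEMIN7 at -1.69 ± 0.12 and -0.70 ± 0.14 (limma adjusted p = 0.00048 and 0.0073).

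The La protein SSB, which binds the closing U run of new RNA polymerase III transcripts, had the largest difference of all genes in these lists, with 163, 166, 181 and 170.2 FPKM on day 30 and 4.60, 3.95, 9.34 and 13.9 FPKM on day 4 (4.40 ± 0.28, limma adjusted p = 0.00041). The Ro60 gene, listed as TROVE2, was higher by 1.57 ± 0.23 (limma adjusted p = 0.0026) and the vault protein MVP lower by -0.85 ± 0.13 (limma adjusted p = 0.0027), so that 2 of the 5 Y and vault proteins tested were higher and 1 lower.

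In the 7SK particle 2 of 7 were higher and 2 lower. LARP7, which protects the 3′ end of RN7SK, had 17.9, 21.6, 22.6 and 18.2 FPKM on day 30 and 0.37, 0.28, 0.65 and 0.89 FPKM on day 4 (3.78 ± 0.18, limma adjusted p = 0.00033), and the cyclin CCNT2 was at 1.66 ± 0.13 (limma adjusted p = 0.00058). The capping enzyme MEPCE and the kinase CDK9 were at -0.76 ± 0.13 and -0.56 ± 0.10 (limma adjusted p = 0.0043 and 0.0052). Of the 10 proteins of RNase P and RNase MRP 6 were higher, led by RPP40 and RPP30 (1.57 ± 0.19 and 1.30 ± 0.21, limma adjusted p = 0.0014 and 0.0034), and only RPP25 was lower (-0.53 ± 0.15, limma adjusted p = 0.024).

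Among 7 telomerase and H/ACA proteins tested, GAR1 and DKC1 were higher (1.04 ± 0.27 and 0.73 ± 0.23, limma adjusted p = 0.018 and 0.037) and WRAP53, which brings scaRNAs and TERC to Cajal bodies, was lower (-1.32 ± 0.13, limma adjusted p = 0.00085). TERT was under the minimum for the test, at 0.18 to 0.35 FPKM. Of 14 RNA polymerase III genes 3 were higher (POLR3F and POLR3G at 2.10 ± 0.24 and 2.02 ± 0.16 among them) and 7 lower, with a median of -0.47. The lowest were the repressor MAF1 and the subunit POLR3D, at -1.33 ± 0.11 and -1.32 ± 0.12 (limma adjusted p = 0.00063 and 0.00067). snRNA promoter and Integrator genes were split 7 higher to 6 lower of 17, from SNAPC1 and INTS8 (2.92 ± 0.18 and 2.51 ± 0.39) to INTS5 and INTS9 (-1.68 ± 0.14 and -1.38 ± 0.13), and the export and cap factors 4 higher to 2 lower of 7, from NCBP2 and PHAX (1.58 ± 0.26 and 1.45 ± 0.24) to TOE1 and SNUPN (-0.93 ± 0.14 and -0.86 ± 0.20), all past the limma threshold. No gene of any of these lists passed an adjusted p of 0.05 for an inhibitor over both days.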

How the data were processed

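Total RNA of 8 RKO cultures was sequenced after poly(A) selection, and the authors deposited 1 table of FPKM values, made with TopHat and Cufflinks per the paper's methods, while the submitters' processing notes name HISAT2 2.2.1.0, Cufflinks, BWA 0.5.9, bedtools 2.20.1 and hg19. The table had 25594 rows, and 90 rows with a repeated symbol were left out. The 30 ChIP samples were not analysed here. FPKM + 1 was put on the log2 scale, and 10865 genes with a mean of at least 1 FPKM were fitted with limma 3.58.1 (R 4.3.3) as day plus treatment over the 8 libraries, with a variance trend and Benjamini-Hochberg adjustment over all genes (threshold 0.05). The p-values measure the spread between these libraries only.

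Fragments were estimated (Python 3.11.15, numpy 2.4.6, scipy 1.17.1, pandas 2.3.3) from a normal fragment length of mean 200 and SD 80 nt. Depth was chosen to bring values of at most about 10 fragments near whole numbers. The tolerance of 0.1 served only to describe the outcome. Ratios have exact 95% binomial counting intervals, and a 0 allows 3 fragments. The estimates assume the authors' counting by Cufflinks with these defaults, and 4 U1 entries without a length have none. The RNAs and gene lists were chosen with earlier results of these data known. The fragment intervals and the contrasts between inhibitors were added after the values were seen. Values in every library are given for the single RNAs, the 4 highest of each class, the 10 smallest p in the day fit and RNAs at least 2-fold from DMSO on both days, and other hosts, scaRNAs and U1 copies named were chosen after their values were seen. Both procedures were tested on simulated data. The simulated fragments followed the same length model that the estimate assumes. The simulated limma data had normal noise around gene means and did not imitate fragment counts. Neither simulation therefore shows how the procedures hold for short RNAs with few fragments. One sequence is not reported here.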

Additional observations from a re-analysis of the deposited data

Results flagged for a closer look

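Among the 40 RNAs named by rule, 80 groups of 4 libraries of 1 day were examined for a value far from the other 3, and 12 were found. A gap of this size arises by chance in about 1 of 20 groups. That rate does not apply to 9 of the 12, where the other 3 libraries were at 0 and any value above 0 stands apart. These 9 are VTRNA1-3, RNU5D-1, VTRNA2-1, RNU5E-1, RNU11, SNAR-B1, SNAR-B2, SNAR-C3 and SNAR-C4, and the snaR copies share reads. On day 30 the values found among the 12 were RNU105A with NCD38 (253.5 FPKM) and, with NCD38-β2PIPP, VTRNA1-3 (237.8 FPKM) and RNU5D-1 (16.3 FPKM). On day 4 NCD38 stood apart for RNY3 (185 FPKM), VTRNA2-1 (39.2 FPKM), RNU5E-1 (18.4 FPKM) and SNAR-A5 (18.1 FPKM). The DMSO library of day 4 stood apart for RNU11 (8.33 FPKM, 1 fragment). With NCD38-β2PIPP on day 4, SNAR-B1, SNAR-B2 and SNAR-C4 had 3.34 FPKM each and SNAR-C3 had 3.45 FPKM where the other 3 libraries were at 0, from 0.2 of a fragment each.

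For 4 RNAs all 3 inhibitors moved one way from DMSO on day 30 and the other way on day 4. This difference was not tested. The mean log2(FPKM + 1) ratio to DMSO was -1.13 on day 30 and 0.70 on day 4 for RNU4-2, 0.98 and -3.22 for RNU11, 0.64 and -3.15 for SNAR-E, and 0.93 and -0.80 for SCARNA12. For RNU11 and SNAR-E the DMSO library of day 4 held 1 fragment.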

How the results depend on the processing

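Requiring a value above 0 in all 8 libraries left 22 RNAs to test, 10 of them higher and 0 lower on day 30. Of all genes 31.5% were then higher and 27.9% lower. Without a filter on low FPKM 26 were higher and 0 lower (23.7% and 19.8% of all genes). Without treatment as a term the counts were 26 and 0 (32.2% and 34.8%). A pseudocount of 0.1 gave 28 and 1 (29.1% and 31.1%) and rescaling by the median ratio 27 and 1 (33.2% and 30.7%). Leaving out 1 library gave 20.1% to 32.9% of all genes higher and 21.9% to 36.6% lower. Of these RNAs 18 to 23 were then higher and 0 to 1 lower, with 18 without either NCD38-β2P4 library. The other library of that treatment then drops out of the day estimate. For the inhibitors over both days, a pseudocount of 0.1 gave 1 RNA for NCD38 and 1 for NCD38-β2P4, RNY4 in both. Leaving out 1 library gave 0 to 1, 0 to 1 and 0 to 3 for NCD38, NCD38-β2P4 and NCD38-β2PIPP. The 3 were RNU5D-1, SCARNA11 and VTRNA1-3 without the NCD38-β2PIPP library of day 4, when that treatment rests on its day 30 library alone, assumed to vary like the others. With DMSO taken from the other day instead, 33 and 42 RNAs were at least 2-fold apart with NCD38 on days 30 and 4. With NCD38-β2P4 31 and 39 were, and with NCD38-β2PIPP 41 and 37. The causes were not tested. Of 400 recomputed day differences of named RNAs, 338 kept their side of the threshold, 58 lost it, 4 gained it and 0 changed sign while called, and 12 RNAs were called throughout.

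Replicates could not be paired because the labels give no shared replicate numbers and no condition was sequenced again. The day fit matched the libraries by treatment only. Depth limits most entries to a few fragments, where a value above or at 0 says little about level. RNA copies and carry-over through poly(A) selection cannot be told apart between the days, and the labels give no read length or run.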
